A study of Mus musculus with 8 samples.

Results

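The cells described here are osteoclast-like, Ctsk-high cells from mouse skin wounds, and there were 247 of them among 35158 cells (0.703%). They were selected on their own measured values. A cell was taken when cathepsin K (Ctsk) reached 20 or more unique molecular identifiers (UMIs, counted RNA molecules) per 10000 non-mitochondrial UMIs, when Acp5 and Atp6v0d2 together reached 10 or more, and when the cell held at least 3000 UMIs. Every cell first had more than 200 non-mitochondrial genes and under 20% mitochondrial UMIs.

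The wounds came from male C57BL/6J mice. In the diabetic group, streptozotocin, a toxin of insulin-producing beta cells, had been given at 120 mg/kg to 4-week-old mice and blood glucose was checked before wounding, whereas the control group was wild type without diabetes. A full-thickness wound 5 mm across was made on the back, and CD45+ (immune) cells were sorted from wounds taken on days 1, 3, 5 and 7. Each group and day is 1 library that pools the wounds of 5 mice, so there are 8 libraries, no replicate library, and a pool cannot show how mice differ.

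Osteoclasts are multinucleated cells of the monocyte lineage that resorb bone. Macrophage colony-stimulating factor, through Csf1r, and RANK ligand, through RANK (Tnfrsf11a), switch on the transcription factor Nfatc1, after which precursors fuse, seal onto the matrix, pump acid through a vacuolar proton pump and release cathepsin K and other proteases. Osteoclasts are rich in mitochondria, and their usual place is bone rather than skin.

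Of the genes that chose the cells, Ctsk encodes the main collagen-degrading protease of osteoclasts and lies on chr3:95499256-95509362, plus strand. Acp5 encodes tartrate-resistant acid phosphatase, the classical osteoclast stain, and lies on chr9:22126727-22135711, minus strand. Atp6v0d2 encodes the osteoclast form of a proton pump subunit and lies on chr4:19876841-19922605, minus strand. Mmp9, a gelatinase, lies on chr2:164940780-164955850, plus strand. Ocstamp, a membrane protein of cell fusion, lies on chr2:165393760-165400405, minus strand. Slc9b2, a sodium/proton exchanger abundant in osteoclasts, lies on chr3:135307700-135345387, plus strand. All positions are of gene spans in the GRCm38 annotation. The deposited tables carry gene symbols without coordinates.

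The sequences of 250 bases before the annotated start are shown for the members of this gene group that RefSeq promoter windows (GRCm38.p6) held, because these genes mark osteoclasts and the rule used Ctsk and Acp5. A match was found for 3 of 7 genes looked for (Ctsk, Acp5 and Slc9b2). Acp5 has 3 annotated starts, and the window shown is the one with motif matches. Capitals mark the matches. The letters searched on both strands were TGANTCA (AP-1), CATGTG (M-box core, bound by Mitf), CACGTG (E-box), GAGGAA (PU.1 core) and TGGAAA (NFAT core).
Ctsk, chr3:95498960-95499209, plus strand: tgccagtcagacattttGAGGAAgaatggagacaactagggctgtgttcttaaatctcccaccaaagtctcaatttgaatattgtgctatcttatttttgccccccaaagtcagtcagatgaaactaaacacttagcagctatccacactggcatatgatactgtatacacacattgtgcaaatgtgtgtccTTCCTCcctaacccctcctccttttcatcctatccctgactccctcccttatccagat
Acp5, chr9:22130599-22130848, minus strand: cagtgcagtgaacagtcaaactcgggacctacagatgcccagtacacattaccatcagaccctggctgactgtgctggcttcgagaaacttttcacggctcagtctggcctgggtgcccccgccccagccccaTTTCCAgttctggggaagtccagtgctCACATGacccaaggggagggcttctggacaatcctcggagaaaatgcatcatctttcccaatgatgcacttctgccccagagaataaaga
Slc9b2, chr3:135307450-135307699, plus strand: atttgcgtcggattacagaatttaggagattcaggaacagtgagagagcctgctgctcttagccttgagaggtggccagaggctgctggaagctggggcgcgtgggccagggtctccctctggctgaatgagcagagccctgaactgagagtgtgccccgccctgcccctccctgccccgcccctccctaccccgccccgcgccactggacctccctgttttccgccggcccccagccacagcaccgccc

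In the Ctsk window the PU.1 core letters began 233 and 58 bases before the start, the second on the opposite strand. In the Acp5 window the NFAT core letters began 117 bases and the M-box core letters 90 bases before the start, both on the opposite strand. The Slc9b2 window and the other Acp5 windows held none of the 5 motifs. Among all 32851 windows of the same length, 23.2% held the PU.1 core, 18.6% the NFAT core, 12.2% the M-box core, 6.75% the AP-1 letters and 6.02% the E-box. These are matches of letters only.

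The 8 libraries held 19236522 to 33842509 UMIs and 3266 to 5436 cells after filtering. The filter removed 28.6% of barcodes from control day 5 and 1.00% to 10.8% from the others. The Ctsk-high cells were deeper than other cells, with a median of 21842 UMIs and 4366 genes (range 3542 to 58938 UMIs), against medians of 9006 to 11135 UMIs in macrophage-gated cells on days 3 to 7. Macrophage-gated cells are those with at least 3000 UMIs and 20 or more C1qa, C1qb and C1qc UMIs per 10000 that were not chosen as Ctsk-high. The median mitochondrial share of the Ctsk-high cells was 3.76% to 5.66%, above the 1.81% to 2.33% of macrophage-gated cells. No profile was identical between libraries, and since barcodes were deposited as serial numbers, shared barcodes could not be counted. A Scrublet run called only 0.193% of all cells as doublets, too few to be of use. By its score, 2.43% of the Ctsk-high cells were in the top 5% of their library, against 6.60% of macrophage-gated cells.

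Free RNA in the suspension was gauged in T cell-gated cells (5 or more Cd3d, Cd3e and Cd3g UMIs per 10000), which should lack osteoclast transcripts. Their Ctsk rate was 2.72 per 10000 in control day 5 and at most 0.915 in the other libraries, below the limit of 20. The lowest Ctsk rate inside the rule was 20.01 and the highest outside it, among cells that met the other limits, was 18.9. For Acp5 plus Atp6v0d2 these values were 10.7 and 9.64, and for UMIs they were 3542 and 2937. There were 315 cells that missed on Ctsk alone, 45 on Acp5 plus Atp6v0d2 alone and 66 on UMIs alone.

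The Ctsk-high cells were absent on day 1, few in diabetic wounds and concentrated in control wounds on day 5. Diabetic wounds held 0, 24, 6 and 3 of them on days 1, 3, 5 and 7, and control wounds held 0, 14, 162 and 38. Control day 5 alone supplied 65.6% of the 247. In share of cells, diabetic day 3 had 0.442% (95% exact binomial interval 0.283 to 0.656) and control day 3 had 0.291% (0.159 to 0.488), so the intervals overlap. On day 5 the diabetic share was 0.143% (0.0527 to 0.312) and the control share 4.96% (4.24 to 5.76). On day 7 the diabetic share was 0.0823% (0.0170 to 0.240) and the control share 0.817% (0.579 to 1.12). The intervals of the groups do not overlap on days 5 and 7, but they cover counting error only and not the spread between wounds. On day 1, taking 3 counts as the limit that a count of 0 allows gives shares of up to 0.0631% in diabetic and 0.0680% in control wounds, and the exact binomial upper bounds are 0.0775% and 0.0836%.

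**Figure D1:**
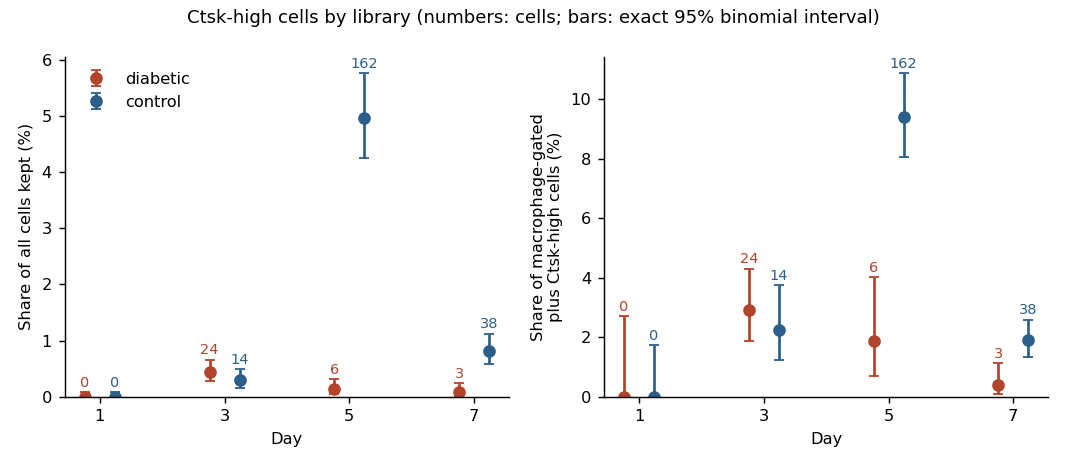
Share of Ctsk-high cells (percent) by day after wounding in diabetic and control wounds, 1 library a point, with 95% exact binomial intervals and the number of cells, among all cells kept (left) and among macrophage-gated plus Ctsk-high cells (right). Control day 5 stands at 4.96% and 9.40%, above every other library, and both day 1 libraries are at 0.

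With the day as block, the mean difference between groups was -1.35 percentage points (0.167% against 1.52%), and the two-sided exact permutation test gave p = 0.5 over 16 arrangements. Since day 1 was 0 in both groups, p could not fall below 0.25. The control share was higher on 2 of the 3 days with any such cell.

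Macrophage abundance differed between libraries, so the share was also taken among macrophage-gated plus Ctsk-high cells. It was 2.91% (1.87 to 4.30) in diabetic and 2.25% (1.24 to 3.75) in control wounds on day 3. On day 5 it was 1.86% (0.687 to 4.01) against 9.40% (8.06 to 10.9), and on day 7 it was 0.391% (0.0806 to 1.14) against 1.89% (1.34 to 2.59). The order of the groups on each day was the same as in the share of all cells.

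The label was checked against osteoclast genes, of which Ctsk, Acp5 and Atp6v0d2 had chosen the cells. Levels are UMIs summed over the cells of a library per 1000000 summed UMIs (CPM). They are not scaled by gene length, and are compared for 1 gene between cells. Ctsk was at 11902 CPM in diabetic day 3, 6426 in control day 3, 13413 in control day 5 and 9941 in control day 7, against 104, 37.4, 402 and 133 CPM in macrophage-gated cells. Acp5 was at 2425, 2095, 2925 and 2659 CPM and Atp6v0d2 at 1599, 1423, 1895 and 1520 CPM in the same 4 libraries. These values follow from the rule.

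Mmp9 was at 5807 CPM in diabetic day 3, 2442 in control day 3, 6046 in control day 5 and 4742 in control day 7, against 73.6 to 221 CPM in macrophage-gated cells. Ocstamp was at 236, 275, 264 and 240 CPM, against 13.2 to 17.8. Slc9b2 was at 188, 250, 342 and 278 CPM, against 1.24 to 9.94. All 3 genes were higher in the Ctsk-high cells of every one of these libraries, with no overlap, and over 2-fold above the T cell-gated level. In neutrophil-gated cells, chosen on Csf3r and Cxcr2, the 6 markers with the rule genes summed to 911, 1215, 1495 and 717 CPM. The sums were 330, 236, 975 and 449 CPM in macrophage-gated cells and 22157, 12912, 24885 and 19381 CPM in Ctsk-high cells. The 6 cells of diabetic day 5 had Mmp9 at 3033, Ocstamp at 162 and Slc9b2 at 334 CPM. The 3 cells of diabetic day 7 had lower Mmp9 (852 CPM) and Ocstamp (64.6 CPM) than any other library, with Slc9b2 at 168 CPM. In those 3 cells C1qa stood at 891 CPM, where Ctsk-high cells of the other libraries had 9.54 to 228 CPM.

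**Figure D2:**
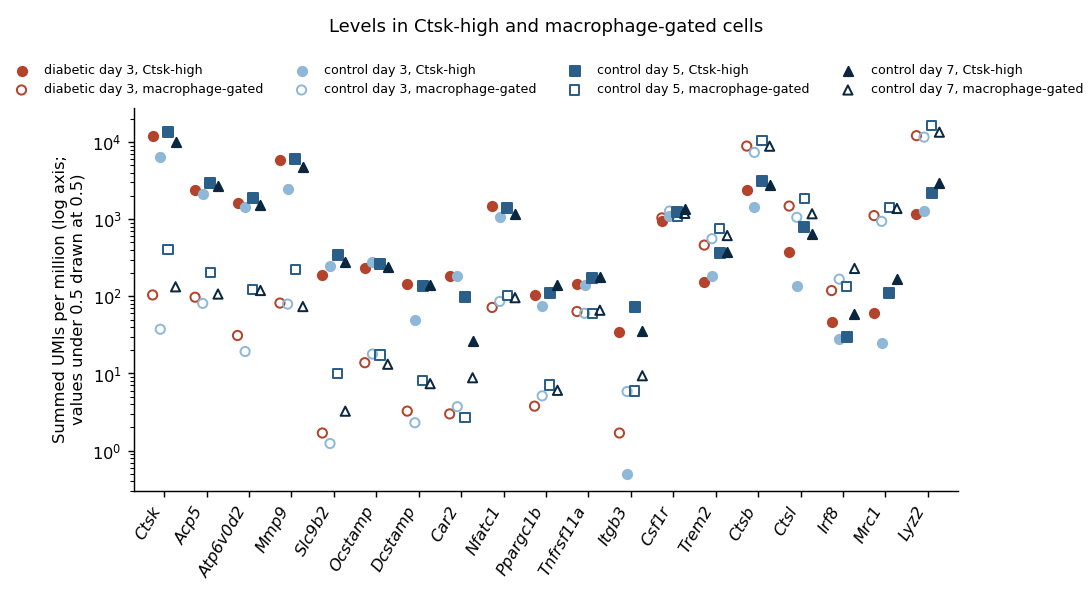
Levels of 19 named genes (CPM, log axis, values under 0.5 drawn at 0.5) in Ctsk-high cells (filled) and macrophage-gated cells (open) of 4 libraries. The genes from Ctsk to Ppargc1b are higher in the Ctsk-high cells of each library, Csf1r is alike, and Ctsb, Ctsl, Irf8, Mrc1 and Lyz2 are lower.

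Not all defining osteoclast genes were present. Calcr, the calcitonin receptor of mature osteoclasts, had 4 UMIs in 2 cells of control day 5, 5 UMIs in 1 cell of control day 7 and none in the other libraries. Siglec15, a receptor of osteoclast fusion, had 1 to 4 UMIs in the libraries where it was seen. Itgb3, the beta3 integrin of the sealing zone, was at 34.4 CPM in diabetic day 3, from 1 cell, 0 in control day 3, 72.0 in control day 5 (50 cells) and 36.0 in control day 7 (16 cells). Macrophage-gated cells of these libraries had Itgb3 at 1.69, 5.83, 5.94 and 9.34 CPM and T cell-gated cells at 42.2, 52.8, 69.6 and 65.0 CPM. Oscar, the osteoclast-associated receptor, was at 19.9, 6.25, 56.6 and 66.7 CPM and had no UMI in the T cell-gated cells of these 4 libraries. The name osteoclast-like therefore rests on the genes above, with Calcr nearly absent. A suspension of single cells does not show fusion or nuclei.

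Across the transcriptome, the 3 libraries with 20 or more Ctsk-high cells (diabetic day 3, control days 5 and 7) had 8177 genes with 50 or more UMIs over both sets of cells. Of these, 715 (8.74%) were at least 2-fold higher and 721 (8.82%) at least 2-fold lower than in macrophage-gated cells in each library. Without diabetic day 3 the higher count was 1081, with a minimum of 200 UMIs it was 374, and after thinning each cell to 3000 UMIs 302 were higher and 357 lower. This is a description without a test, because the cells were chosen on values of the same libraries. Control day 3, with 14 Ctsk-high cells, had no part in that count. There, 554 of 614 measured higher genes (90.2%) were past 2-fold in the same direction, where 20.4% of all genes tested were, and 585 of 687 lower genes (85.1%) were, where 19.7% of all were.

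The genes farthest above macrophage-gated cells, by the smallest log2 ratio over the 3 libraries, included Slc9b2 (5.11), Ctsk (5.06, a gene of the rule), Cyp2s1 (5.04), Mmp9 (4.77), Rufy4 (4.65), Bdh2 (4.31), Dcstamp (4.04), Ppargc1b (3.97) and Ocstamp (3.92). Cyp2s1, a cytochrome P450, was at 132, 156 and 112 CPM in diabetic day 3, control day 5 and control day 7, against 3.25, 4.75 and 1.87 CPM. Rufy4, a protein of vesicle transport and autophagy, was at 77.9, 103 and 74.1 CPM, against 1.04, 4.10 and 1.57. Bdh2, a short-chain dehydrogenase, was at 134, 190 and 147 CPM, against 4.42, 9.56 and 4.92. Each of these 3 genes was far above macrophage-gated cells in these 3 libraries. In the 3 cells of diabetic day 7 Rufy4 had 0 UMIs.

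In the fusion list, 4 of 10 measured genes were higher (Dcstamp, Ocstamp, Sh3pxd2a and Atp6v0d2, the last of which had chosen the cells) and 2 were lower (Cd81 and Adam8). The median log2 ratio was 0.24, against 0.15 for all genes tested. With control day 3 included the fusion median was -0.38. Dcstamp, the membrane protein required for osteoclast fusion, was at 143 CPM in diabetic day 3, 50.03 in control day 3, 134 in control day 5 and 139 in control day 7, against 2.30 to 8.15 in macrophage-gated cells. Sh3pxd2a, a scaffold of podosomes, was at 68.9, 103, 95.5 and 91.1 CPM, against 26.1, 40.6, 32.6 and 35.9. The tetraspanin Cd81 was lower, at 7.25, 9.38, 15.4 and 41.3 CPM against 74.0, 66.9, 102 and 112 CPM.

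Genes of acid secretion were higher in part. In the list of acid and ion transport, 4 of 7 genes were higher (Car2, Slc4a2, Slc9b2 and Snx10), none were lower and the median log2 ratio was 2.38. Car2, the carbonic anhydrase that supplies protons, was at 183 CPM in diabetic day 3, 181 in control day 3, 97.5 in control day 5 and 26.5 in control day 7, against 2.70 to 8.80 CPM. Snx10, a sorting nexin needed for the ruffled border, was at 540, 541, 945 and 991 CPM, against 178, 131, 161 and 151. Slc4a2, the chloride/bicarbonate exchanger, was at 172, 213, 188 and 162 CPM, against 29.5 to 36.2. Clcn7 and Ostm1, which form the chloride channel of the ruffled border, did not reach 2-fold in every library. Among these 4 libraries Car2 was lowest on control day 7, whereas Snx10 was higher on control days 5 and 7 than in the day 3 libraries.

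Of 18 proton pump genes, 6 were higher (Atp6v0d2, Atp6v0e, Atp6v1a, Atp6v1b2, Atp6v1d and Atp6v1g1), 1 was lower (Atp6v0a1) and the median was 0.88. The place of Atp6v0d2 among them follows from the rule. Atp6v1b2 was at 1840, 1817, 1979 and 1856 CPM, against 582, 503, 606 and 509 CPM. Tcirg1, the a3 subunit used by osteoclasts, was at 725, 763, 858 and 800 CPM, against 312, 378, 367 and 408, and just missed 2-fold in control day 7. The a1 subunit Atp6v0a1 was at 7.25, 25.02, 20.3 and 47.7 CPM, against 82.2, 121, 96.1 and 102. The subunits of the pump thus differed in direction.

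Of 11 genes of matrix and bone proteolysis, 3 were higher (Ctsk, Mmp9 and Acp5) and 2 were lower (Ctsb and Ctsd). Ctsk and Acp5 had chosen the cells, which leaves Mmp9 as the 1 higher gene of the other 9. That is near the 8.74% of all genes that were higher, and 8.82% of all genes were lower. The median of all 11 was 0.05, a value whose sign changed without diabetic day 3. The lysosomal cathepsin Ctsb was at 2407, 1426, 3107 and 2812 CPM, against 8865, 7341, 10565 and 8836 in macrophage-gated cells. Ctsd was at 285, 191, 444 and 454 CPM, against 1035, 861, 1319 and 1091.

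**Figure D3:**
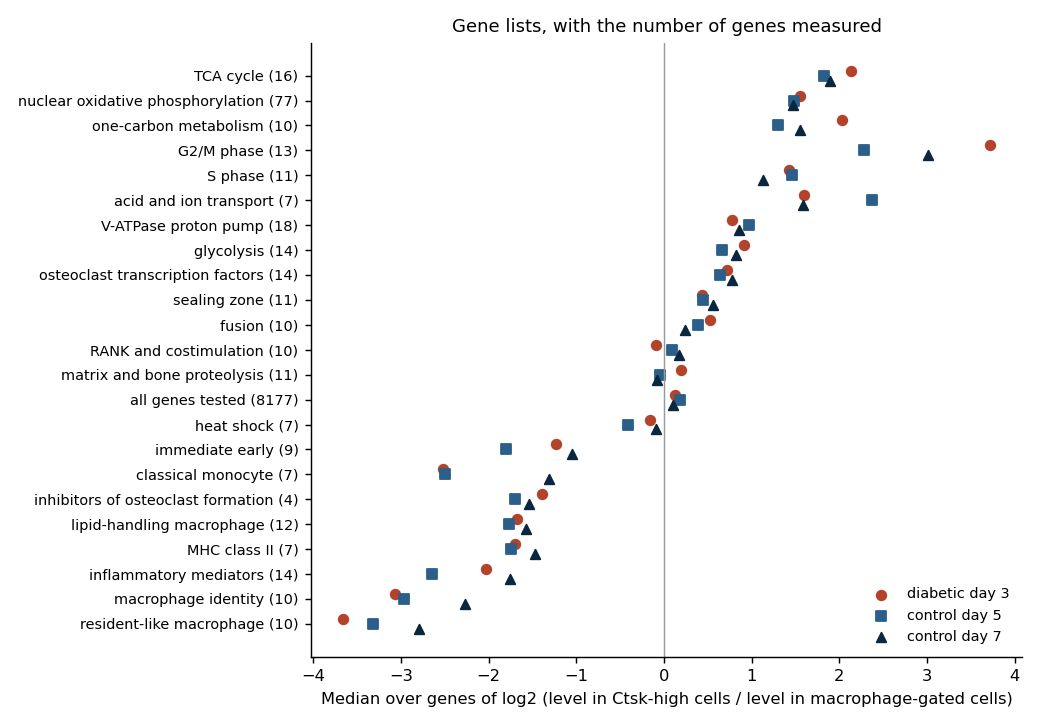
Median over the genes of each list of the log2 ratio of Ctsk-high over macrophage-gated cells, 1 point a library, for the 3 libraries with 20 or more Ctsk-high cells, with the number of genes measured. TCA cycle, oxidative phosphorylation and G2/M genes lie above the median of all genes, and resident-like macrophage, macrophage identity and inflammatory genes below it.

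Among RANK and costimulation genes only Tnfrsf11a was higher, in 1 of 10 measured, a share near the 8.74% of all genes, and the median was 0.07, a value whose sign changed without control day 7. Tnfrsf11a was at 143, 141, 171 and 178 CPM, against 60 to 66.0 CPM in macrophage-gated cells and 4.72 to 23.2 in T cell-gated cells. Csf1r was at 933, 1091, 1255 and 1335 CPM, against 1038, 1274, 1095 and 1189, with log2 ratios of -0.15 to 0.20 in the 3 larger libraries. The adaptor Tyrobp was at 1716, 1889, 1848 and 1900 CPM, against 1758, 1998, 1874 and 1689. Csf1r and Tyrobp were thus near macrophage levels.

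Of 14 osteoclast transcription factors, 5 were higher (Nfatc1, Mitf, Jdp2, Prdm1 and Ppargc1b), none lower, and the median was 0.78. Nfatc1 was at 1474 CPM in diabetic day 3, 1063 in control day 3, 1376 in control day 5 and 1181 in control day 7, against 71.8 to 103 CPM. Ppargc1b, a coactivator of mitochondrial biogenesis, was at 105, 75.05, 111 and 142 CPM, against 3.77 to 7.07 CPM. Jdp2, an AP-1 family factor, was at 1191, 866, 1100 and 1179 CPM, against 266 to 334. Irf8, an inhibitor of osteoclast formation, was lower, at 47.1, 28.1, 29.7 and 58.2 CPM, against 119, 167, 134 and 230 CPM. These 5 activators and Irf8 lay on opposite sides of the macrophage-gated level.

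In the sealing zone list, 4 of 11 genes were higher (Itgav, Src, Rac2 and Dock5), none lower, and the median was 0.43. Src, the kinase required for the ruffled border, was at 140, 250, 196 and 181 CPM, against 20.1 to 29.5, while T cell-gated cells had 109, 17.9, 57.0 and 61.0 CPM. Rac2 was below the T cell-gated level in every library, and Src was less than 2-fold above it in diabetic day 3.

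Genes of mitochondrial metabolism were higher for the most part. Of 16 tricarboxylic acid (TCA) cycle genes, 15 were higher, with a median of 1.91. Of 77 nuclear oxidative phosphorylation genes, 62 were higher, none lower, with a median of 1.51. Idh3a, a subunit of isocitrate dehydrogenase, was at 172 CPM in diabetic day 3, 172 in control day 3, 220 in control day 5 and 162 in control day 7, against 18.8 to 27.8 CPM. Tfrc, the transferrin receptor that brings in iron, was at 740, 522, 1122 and 791 CPM, against 65.4 to 114 CPM. Glycolysis had 4 of 14 higher and 1 lower (Slc2a1), with a median of 0.82, and one-carbon metabolism had 5 of 10 higher, with a median of 1.44. The mitochondrial share of UMIs and the depth per cell were higher in the same cells, as given above, and their part in these ratios was not tested.

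Macrophage genes were lower. All 10 resident-like macrophage genes were lower (median -3.32), as were 8 of 10 macrophage identity genes (median -2.97), 8 of 12 lipid-handling genes (median -1.58), 5 of 7 MHC class II genes (median -1.63) and 12 of 14 inflammatory mediators (median -2.05). Mrc1, the mannose receptor, was at 61.6, 25.02, 109 and 165 CPM, against 1113, 937, 1428 and 1377 CPM. The farthest below were Ms4a4a (-4.18), Selenop (-4.13), Cacna1d (-3.89), Ly86 (-3.56), Cx3cr1 (-3.55), Lyve1 (-3.51), Iqgap2 (-3.50), Sp110 (-3.38), Mctp1 (-3.38) and Cxcl10 (-3.33), as the smallest log2 ratio over 3 libraries. Cd68, a general marker of phagocytes, was at 1713, 1292, 1846 and 1782 CPM, against 1794, 1737, 2147 and 1865, so it was near the macrophage-gated level.

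The levels of these genes were set beside those in T cell-gated cells, the gauge of free RNA. T cells can also make some of these transcripts themselves, so a nearby level does not show that the RNA was free. After thinning, 12.6% (control day 7) to 34.3% (diabetic day 3) of T cell-gated cells had UMIs of 2 or more G2/M genes. In all 3 libraries 14 of 14 inflammatory mediators were at most 2-fold above T cell-gated cells or under them, as were 7 of 7 classical monocyte, 7 of 10 resident-like and 6 of 10 macrophage identity genes. Among all genes tested this held for 5402 of 8177, so the shares of the resident-like and macrophage identity lists were near that of all genes. It held for none of Mmp9, Ocstamp and Slc9b2, the 3 osteoclast markers outside the rule, 2 of 18 proton pump genes and 1 of 16 TCA cycle genes. Other lists lay closer to the T cell-gated level. There it held for 4 of 10 fusion, 5 of 14 transcription factor and 4 of 11 sealing zone genes. For glycolysis it held for 9 of 14, for G2/M for 5 of 13 and for S phase for 11 of 11 genes. The remaining genes were not all above the T cell-gated level, since each count needed all 3 libraries. Over 2-fold above it in all 3 were 6 of 10 fusion, 7 of 14 transcription factor and 1 of 11 sealing zone genes. For glycolysis these were 3 of 14, for G2/M 0 of 13, for S phase 0 of 11, and for all genes 838 of 8177. C1qa itself, which set the macrophage gate, was at 83.4, 37.5, 183 and 228 CPM in Ctsk-high cells and at 73.3, 41.5, 133 and 164 CPM in T cell-gated cells.

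Markers of other cell types were measured in the same cells. Summed T cell markers were at 25.02 to 113 CPM in the Ctsk-high cells of the 4 larger libraries, against 3427 to 4391 CPM in T cell-gated cells. Summed neutrophil markers were at 148 to 1919 CPM, against 23132 to 37216 CPM in neutrophil-gated cells, and were below the T cell-gated level in each of the 4 libraries. No gene of the NK cell, B cell, fibroblast, keratinocyte or erythroid lists had enough UMIs to be measured in all 3 libraries.

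Genes of cell division were higher in a portion of the Ctsk-high cells. Of 13 G2/M genes 12 were higher than in macrophage-gated cells (median 2.89), and of 11 S phase genes 6 were higher (median 1.55). After each cell was thinned to 3000 UMIs, UMIs of 2 or more G2/M genes were found in 33.3% of cells in diabetic day 3 (15.6 to 55.3), 50% in control day 3 (23.0 to 77.0), 31.5% in control day 5 (24.4 to 39.2) and 28.9% in control day 7 (15.4 to 45.9). The shares in macrophage-gated cells were 5.25%, 2.80%, 9.80% and 5.94%, and in T cell-gated cells they were 34.3%, 25.2%, 27.0% and 12.6%. The few cells of diabetic days 5 and 7 gave 0 of 6 and 0 of 3, which at this number is compatible with shares of up to 45.9% and 70.8%. Without thinning the shares were 70.8%, 71.4%, 69.8% and 63.2%. The intervals of these thinned shares overlap one another among the 4 larger libraries. In summed counts without thinning, the 6 cells of diabetic day 5 had 1 UMI of Top2a and 0 of Mki67, and the 162 cells of control day 5 had 937 and 558, or 9.54 against 268 CPM for Top2a.

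In control day 5, the 51 cells with 2 or more G2/M genes after thinning to 3000 UMIs were set beside the 73 cells with no G2/M UMI after it. Their levels on all UMIs are given, with a median depth of 27626 against 19565 UMIs per cell, whose part was not tested. Mmp9 was at 2790 against 8566 CPM, Ocstamp at 171 against 349 and Dcstamp at 99.9 against 186, whereas Nfatc1 was at 1281 against 1401. In control day 7 (11 and 21 cells) Mmp9 was at 2124 against 6305 CPM and Ocstamp at 102 against 308. In diabetic day 3 (8 and 9 cells) Ocstamp was at 59.4 against 358 CPM, and Mmp9 at 4616 against 5554. Cells with G2/M transcripts after thinning thus had less Mmp9 and Ocstamp in each of these 3 libraries, and Nfatc1 differed less in the control libraries. The sets were formed from measured values of the same cells, so no test is given.

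**Figure D4:**
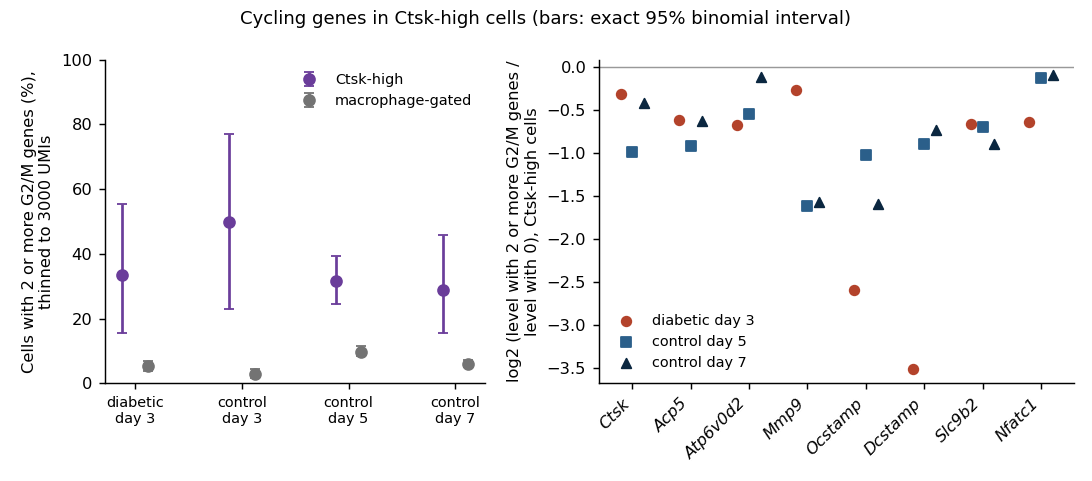
Left, share of cells with UMIs of 2 or more G2/M genes after thinning to 3000 UMIs (percent, with 95% exact binomial intervals) in Ctsk-high and macrophage-gated cells. Right, log2 ratio of the level in Ctsk-high cells with 2 or more G2/M genes over that in Ctsk-high cells with none, both sets formed after the same thinning, 1 point a library. The Ctsk-high shares are 28.9% to 50%, the macrophage-gated shares 2.80% to 9.80%, and every ratio plotted is below 0, of which those of Ctsk, Acp5 and Atp6v0d2 concern genes of the rule.

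The Ctsk-high cells varied widely among themselves. In the 162 cells of control day 5, Ctsk ranged from 20.01 to 353 UMIs per 10000 (median 120) and Mmp9 from 0 to 297 (median 39.4), with 3 cells lacking Mmp9. Ocstamp was not seen in 38 of the 162 cells and Dcstamp in 67. Across those cells, Spearman's rho with Ctsk was 0.70 for Acp5, 0.70 for Mmp9, 0.54 for Atp6v0d2, 0.42 for Ocstamp and -0.34 for Mki67. In diabetic day 3, control day 3 and control day 7, rho was 0.31, 0.52 and 0.535 for Mmp9 and 0.42, 0.37 and 0.37 for Ocstamp. For Mki67 it was -0.02, -0.47 and -0.19, for Acp5 0.65, 0.39 and 0.72, and for Atp6v0d2 0.61, 0.09 and 0.61. Each value describes cells within 1 library, and Ctsk, Acp5 and Atp6v0d2 were also used to choose them.

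Between groups on day 3 the cell numbers were nearest (24 diabetic, 14 control). Of 3174 genes with 50 or more UMIs over both, 154 (4.85%) were at least 2-fold higher and 62 (1.95%) at least 2-fold lower in diabetic cells, with 1 library a side and no test. These counts rest on the depth: they were 465 and 282 with a minimum of 20 UMIs, 22 and 2 with 200, and 10 and 5 after thinning. The osteoclast lists hardly took part. None of 15 proton pump, 11 transcription factor or 8 sealing zone genes passed 2-fold, and Mmp9 was the one of the 3 marker genes outside the rule that did (5807 against 2442 CPM, ratio 2.38, interval 2.20 to 2.57). Mmp9 was 81.8 against 79.3 CPM in macrophage-gated cells and 116 against 53.8 CPM in T cell-gated cells.

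Of the inflammatory list, 8 of 14 genes were higher in diabetic day 3 (Il1a, Il1b, Tnf, Cxcl3, Ccl2, Ccl3, Saa3 and Slpi), with a median log2 ratio of 1.18, against -0.02 over all genes. Of the neutrophil markers 2 of 4 were higher (Retnlg and Lcn2), with a median of 1.30. The summed inflammatory level was 7587 against 4153 CPM in Ctsk-high cells and 13626 against 7221 CPM in T cell-gated cells, and the part of neutrophil and free RNA in these differences was not tested. By the farthest interval bound the genes named were Fxyd2, Lcn2, Saa3, Mt2, Il1a, Gpnmb, Kbtbd11, Atp1b3, Cadm1 and Tnfaip2. Gpnmb went the other way on day 5, at 9.54 CPM in diabetic cells (1 UMI) against 311 CPM in control cells. Macrophage-gated cells of day 5 had Gpnmb at 355 against 836 CPM. Fxyd2, a regulator of the sodium pump, was at 187 against 9.38 CPM (ratio 19.9, interval 6.62 to 98.1), with 26.2% of its UMIs from 1 cell. Atp1b3, a sodium pump subunit, was at 1178 against 385 CPM (ratio 3.06, 2.52 to 3.75), in 24 of 24 and 13 of 14 cells. Macrophage-gated cells had Atp1b3 at 589 against 498 CPM. Lcn2, Saa3 and Il1a also differed in T cell-gated cells, at 204 against 33.0, 129 against 42.5 and 287 against 33.0 CPM. So did Fxyd2 (15.6 against 1.89), Mt2 (73.3 against 19.8), Gpnmb (57.8 against 24.5) and Tnfaip2 (309 against 100 CPM). Kbtbd11 (93.3 against 64.2) and Atp1b3 (622 against 588 CPM) differed less there, and Cadm1 was at 0 in both. In macrophage-gated cells Fxyd2 was at 54.1 against 22.4 CPM. For Lcn2 and Il1a the T cell-gated level was above that of the Ctsk-high cells in both libraries, and for Saa3 it was too.

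Lower in diabetic day 3 were Cxcr4, Cav1, Phf23, Rsrp1, Srm, Dedd2, Ipmk, Ptpn1, Incenp and Cd200. Cxcr4, a chemokine receptor of marrow homing, was at 194 against 585 CPM (3.02-fold lower, interval 2.36 to 3.86), and macrophage-gated cells had 274 against 519. Cav1, the caveolar coat protein, was at 30.8 against 125 CPM (4.06-fold lower, 2.25 to 7.64). Cd200, an immunoregulatory membrane protein, was at 76.1 against 191 CPM (2.51-fold lower, 1.66 to 3.81), and was nearly absent from macrophage-gated cells (4.68 and 3.71 CPM).

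Over all days, diabetic and control libraries with 3 or more Ctsk-high cells were compared with the day as block (6 libraries, 3 days). By edgeR's quasi-likelihood test with Benjamini-Hochberg adjustment, 2 of 6247 genes were higher (0.032%) and 0 lower (0%), with 347 at an unadjusted p under 0.05, and DESeq2 gave 2 higher and 0 lower. The minimum of 3 cells was set after the counts were seen. With 5 or more cells (4 libraries, 2 days), edgeR called 33 higher (0.571%) and 3 lower (0.0519%) of 5784 genes, and DESeq2 called 0, with 86 at an unadjusted p under 0.05. Without day 5, edgeR called 0, with 263 at an unadjusted p under 0.05, and without day 3 it called 20 higher and 10 lower.

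Both genes called were interleukin-1 genes. Il1a, interleukin 1 alpha, was at 143, 85.8 and 245 CPM in diabetic days 3, 5 and 7 and at 18.8, 14.6 and 27.5 CPM in control, so the groups did not overlap. Its log2 ratio was 2.94 (edgeR adjusted p = 0.0297), and it was higher on 3 of 3 days. Il1b, interleukin 1 beta, was at 517, 420 and 2376 CPM in diabetic and 216, 119 and 287 CPM in control wounds, with a log2 ratio of 2.12 (edgeR adjusted p = 0.0297), and was higher on 3 of 3 days. In diabetic day 7, 1 of the 3 cells gave 92.4% of the Il1b and 68.4% of the Il1a UMIs. The 3 cells also had more RNA of macrophage genes than the Ctsk-high cells of control day 7, with the macrophage identity list at 19704 against 6811 CPM and MHC class II genes at 18516 against 5561 CPM. Their C1qa, C1qb and C1qc were at 891, 2221 and 1420 CPM, where the diabetic macrophage-gated cells of that day had 1112, 3264 and 1949. The part of macrophage RNA in the result was not tested.

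Both genes moved with the group in other cells as well. In macrophage-gated cells Il1a was at 367, 303 and 235 CPM in diabetic and 106, 114 and 136 CPM in control wounds. In T cell-gated cells Il1a was at 287, 171 and 89.8 CPM against 33.0, 14.8 and 37.7, and Il1b at 1207, 768 and 558 CPM against 611, 361 and 510. The Ctsk-high levels of both genes were under the T cell-gated level on all 3 days in control wounds and on days 3 and 5 in diabetic wounds, and above it in diabetic day 7. The part of free RNA in these differences was not tested. Of the 14 inflammatory mediators, all 14 had a positive log2 ratio, as did 2924 of 6247 genes (median 1.38, against -0.04 for all genes). Of the 14, 2 passed the threshold, and 11 were higher on each of the 3 days, as were 667 of 6247 genes.

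**Figure D5:**
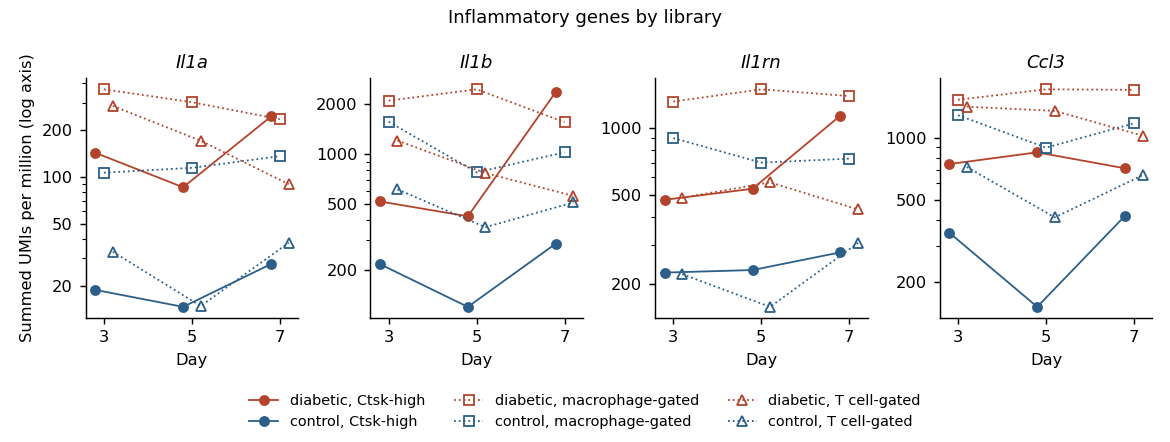
Levels of Il1a, Il1b, Il1rn and Ccl3 (CPM, log axis) by day in Ctsk-high, macrophage-gated and T cell-gated cells of diabetic and control wounds, 1 library a point. Il1a in Ctsk-high cells is 85.8 to 245 CPM in diabetic and 14.6 to 27.5 CPM in control wounds, and it is also higher in diabetic than in control T cell-gated cells on each day.

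The osteoclast genes outside the rule were not called between groups. Leaving out Ctsk, Acp5 and Atp6v0d2, which had chosen the cells, the log2 ratios, diabetic over control, were -0.67 for Mmp9, -0.71 for Ocstamp, -0.32 for Slc9b2 and 0.20 for Nfatc1, with edgeR adjusted p from 0.884 to 0.967. A p of this size does not show that the levels were equal.

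Across control days, Ctsk-high cells of day 5 were set against those of day 3. Of 6973 genes, 745 (10.7%) were at least 2-fold higher and 249 (3.57%) at least 2-fold lower on day 5, without a test. The minimum of 50 UMIs was over both libraries, with 14 cells on day 3 and 162 on day 5. A gene could thus enter on day 5 counts alone with few UMIs on day 3, and the part of counting error in these counts was not tested. Of the 11 genes of matrix and bone proteolysis, 6 were higher (Ctsk, Mmp9, Mmp12, Ctsb, Ctsl and Ctsd). Ctsk had chosen the cells, so nothing is read from its place among them. Of the lists of iron and resident-like macrophage genes, 4 of 7 and 7 of 8 were higher, and 1 iron gene (Nrf1) was lower. Of S phase genes 3 of 14 and of G2/M genes 1 of 16 were lower. Ctsl, a lysosomal cathepsin, was at 794 against 134 CPM (ratio 5.91, interval 4.37 to 8.18). Gpnmb, a glycoprotein of phagocytes and osteoclasts, was at 311 against 31.3 CPM (ratio 9.95, 5.39 to 20.8).

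Several of these moved alike in other cells. Ctsl was at 1845 against 1057 CPM in macrophage-gated and 418 against 67.9 CPM in T cell-gated cells, and Gpnmb at 836 against 315 and 94.9 against 24.5 CPM. Ccl8, Cd36, Igf1 and Selenop, also among the 10 with the farthest bound, were higher on day 5 in both other sets. Itgb3 had 0 UMIs on day 3 and was at least 7.68-fold higher on day 5, with 3 counts taken as the floor of a library (the exact lower bound of the ratio was 6.20), where macrophage-gated cells had 5.83 and 5.94 and T cell-gated cells 52.8 and 69.6 CPM. Lower on day 5 were Plac8, S100a9, Ly6c2, S100a8, Acod1, Hdc, Slpi, Fas, Slfn4 and Trem1. Plac8 and Ly6c2 are in the classical monocyte list, S100a8 and S100a9 in the neutrophil list and Acod1 and Slpi in the inflammatory list. S100a9 was at 46.3 against 428 CPM, and at 80.2 against 772 CPM in T cell-gated cells.

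From control day 5 to day 7, 181 of 7324 genes (2.47%) were at least 2-fold higher and 243 (3.32%) at least 2-fold lower, without a test. None of Mmp9, Ocstamp and Slc9b2, the marker genes outside the rule, and no TCA cycle or transcription factor gene passed 2-fold. In other osteoclast lists Atp6v0a1, Cd81 and Bcl6 were higher, and Atp6v0c, Car2 and Itgb3 were lower. Of classical monocyte genes 4 of 4 were higher, and of inflammatory mediators 6 of 14. The higher genes with the farthest bounds were Igkc, Ighg2b, Col1a2, Col1a1, S100a9, Sparc, Hspa1b, Mcemp1, S100a8 and Hdc. Col1a1 and Col1a2 are in the fibroblast list, S100a8 and S100a9 in the neutrophil list and Hspa1b in the heat shock list. The mast cell list had 2 of 2 higher (Cpa3 and Tpsb2). Col1a1 was at 246 against 16.3 CPM, and at 203 against 25.3 CPM in T cell-gated cells. All 10 were higher in T cell-gated cells of day 7 too.

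Lower on day 7 were Ncapd3, Sbsn, Fxyd2, Atad5, Ifi202b, Pgf, Tmem267, Ccr3, Car2 and Gm42418. Car2 was at 26.5 against 97.5 CPM (3.68-fold lower, interval 2.45 to 5.77), with UMIs in 15 of 38 and 71 of 162 cells. Pgf, placental growth factor, was at 46.6 against 184 CPM (3.94-fold lower, 2.90 to 5.48). Fxyd2 was at 11.6 against 77.5 CPM (6.65-fold lower, 3.66 to 13.5). Car2 in T cell-gated cells was at 5.62 against 2.11 CPM, and Fxyd2 at 13.6 against 16.9 CPM.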

How the data were processed

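Single cells of 8 pooled libraries were analysed from the UMI count tables as deposited by the authors, per gene and cell and without normalization. Per the submitters' processing notes reads were trimmed with fastp 0.20.1, and the build named is mm9. The paper names the BD Rhapsody platform and the series record names 10X. Members and lists were chosen with earlier results of these data known. Per library, UMIs were summed over cells and divided by the total (CPM). Genes named are the list members and those of largest fold or farthest interval bound. Ratios between libraries have exact conditional binomial intervals, and shares have exact Clopper-Pearson ones. These cover counting error only. The planned edgeR fit (10 or more cells) left 1 day and gave no test, so a minimum of 3 was taken after the counts were seen. A minimum of 10 cells for comparisons that involve control day 3, instead of 20, was likewise chosen after seeing the data. UMIs of the selected cells were summed per library and fitted with edgeR 4.0.16 (quasi-likelihood, TMM, filterByExpr, day as block, adjusted p of 0.05) in R 4.3.3, with limma 3.58.1 and DESeq2 1.42.0 as an alternative. Other steps used Python 3.11.15, numpy 2.4.6, scipy 1.17.1, pandas 2.3.3, scanpy 1.11.5 (with Scrublet) and matplotlib 3.10.9. Tested on simulated data, the comparison with macrophage-gated cells recovered 99 of 100 higher and 93 of 100 lower genes among 8177 with 0 false calls. Changes in that simulation were larger than the cut-off, and its counts had counting noise only, without spread between cells. It therefore does not measure recovery or false calls in the real cells. The edgeR fit with 3 or more cells recovered 66.1% of 186 changed genes with 2 false calls, and with 5 or more cells it recovered 0. Alternatives were other UMI minimums, gates, denominators, thinning, doublet scores, filters and leaving out libraries. Some genes that these rules name are not reported here.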

Additional observations from a re-analysis of the deposited data

Results flagged for a closer look

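The share of Ctsk-high cells differed in direction between days. The diabetic share minus the control share was 0.150 percentage points on day 3, -4.82 on day 5 and -0.734 on day 7. With 1 library per group and day, the change in direction was not tested, and on day 3 the binomial intervals of the groups overlap.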

How the results depend on the processing

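The direction of the share difference was the same under all 39 alternatives for the 3 days. With cells of 3000 or more UMIs as denominator the difference was 0.311 percentage points on day 3 (0.150 with all cells as denominator), -6.86 on day 5 and -1.07 on day 7, and with cells thinned to 3000 UMIs it was 0.311, -7.04 and -1.14. On day 3 the lowest difference was 0.0853, with a Ctsk threshold of 10. Against macrophage-gated cells, 374 genes were higher with a minimum of 200 UMIs, and 302 were higher and 357 lower after thinning. Leaving out 1 library at a time gave 874 to 1081 higher (1081 without diabetic day 3) and 824 to 1031 lower. Between groups on day 3, counts were 465 higher and 282 lower at 20 UMIs, 22 and 2 at 200 UMIs, and 10 and 5 after thinning, where fewer genes reach the minimum. Shares with 2 or more G2/M genes on the counts as deposited were 70.8%, 69.8% and 63.2% in Ctsk-high cells. In macrophage-gated cells of the same libraries they were 16%, 33.3% and 21.2%. The edgeR call count was 36 with 5 or more cells, 12 without a filter, and 0 by DESeq2 with 5 or more cells, and leaving out a day gave 0 (day 5), 30 (day 3) and 36 (day 7). Of 196 alternatives for list medians, 165 moved by less than the spread between libraries, 26 moved further and 5 changed sign. Those were matrix and bone proteolysis (-0.0152 with a C1q gate of 40, and -0.0139 to 0.0823 leaving out 1 library, the lowest without diabetic day 3), RANK and costimulation (-0.0031 to 0.182 leaving out 1 library, the lowest without control day 7, and -0.0103 with 10 or more cells) and fusion (-0.38 with 10 or more cells). The causes were not tested. No paired analysis was possible by replicate number because each group and day has 1 library. Libraries were paired by day, as the block of the edgeR fit and in the permutation test. Depth limits genes under 50 UMIs and all values of diabetic days 5 and 7.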
